A study of Mus musculus with 32 samples.

Results

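The open chromatin regions (OCRs) that separate chronically stressed from control mice were described in orbitofrontal cortex (OFC) astrocytes with Zbtb7a knockdown (Zbt-KD). Members were the peaks of the Zbt-KD CSDS list and of the Zbt-KD control list on chromosomes 1 to 19. A peak of the CSDS list without a 1 bp overlap in the control list was called opened, and a peak of the control list without a 1 bp overlap in the CSDS list was called closed. Of 1184 CSDS peaks 327 were opened (27.6%, 95% Wilson interval 25.1 to 30.2), and of 1302 control peaks 316 were closed (24.3%, 22.0 to 26.7). These 2486 peaks belong to 16174 in the 6 lists of the series.

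ATAC-seq was performed on astrocytes isolated from male C57BL/6J mice, 6 to 12 weeks old when purchased, by magnetic sorting (MACs) on an astrocyte surface antigen. All mice of both groups carried a GFAP-promoter AAV with a microRNA against Zbtb7a, which acts where that promoter is active and lowers the RNA, so the peaks give no check of the knockdown. The Zbt-KD CSDS group received 10 days of chronic social defeat stress (CSDS) and the Zbt-KD control group received none, with 5 samples per group, 3 mice pooled per sample and 50000 cells per library. The GFP control and GFP CSDS groups (5 samples each) carried the control virus, and a separate overexpression experiment had a GFP and a ZBT-OE group (6 samples each), both from mice that, per the study's text, had gone through subthreshold social defeat stress, while their labels name the virus alone. The files analysed here hold 1 peak list per group, without values per sample. No spread between samples and no test of stress can therefore be given, and every interval below covers counting error over peaks only.

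ZBTB7A is a zinc finger transcription factor of the POK family that binds GC-rich DNA and can repress or help to open chromatin. Astrocytes are the glia that clear glutamate, buffer potassium and take part in inflammatory responses, and ATAC-seq marks where the DNA of such cells is accessible to a transposase. In a bulk ATAC-seq peak, more cells with an open region and more opening per cell cannot be told apart.

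Few of the opened or closed peaks held the start of a coding gene, and the DNA before such a start is where a listed difference lies closest to a promoter. The stretches below are the RefSeq (GRCm38.p6) bases before 8 of these starts, 5′ to 3′ on the gene's strand, without bases of any annotated exon and with each CG dinucleotide in capitals. For the opened peaks they belong to Retnlg, a resistin-like gene and the only promoter-annotated opened peak, to Kdm4a, a histone lysine demethylase, to Cd200, a membrane protein that restrains myeloid cells and whose 3 opened peaks include the one of highest fold enrichment, and to Hacd1, an enzyme of very long chain fatty acid synthesis with a run of 4 opened peaks.
Retnlg, chr16:48872358-48872607, strand +: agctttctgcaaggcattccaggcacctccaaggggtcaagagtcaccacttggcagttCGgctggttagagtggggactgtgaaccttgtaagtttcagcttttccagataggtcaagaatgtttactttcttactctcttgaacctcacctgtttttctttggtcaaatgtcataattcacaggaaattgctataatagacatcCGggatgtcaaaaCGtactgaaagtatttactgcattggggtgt
Kdm4a, chr4:118180044-118180293, strand -: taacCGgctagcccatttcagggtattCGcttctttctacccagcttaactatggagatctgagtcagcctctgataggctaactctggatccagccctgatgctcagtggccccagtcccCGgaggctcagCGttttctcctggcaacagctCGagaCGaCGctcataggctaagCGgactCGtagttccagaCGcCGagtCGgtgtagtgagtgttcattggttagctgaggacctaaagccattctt
Cd200, chr16:45409054-45409303, strand -: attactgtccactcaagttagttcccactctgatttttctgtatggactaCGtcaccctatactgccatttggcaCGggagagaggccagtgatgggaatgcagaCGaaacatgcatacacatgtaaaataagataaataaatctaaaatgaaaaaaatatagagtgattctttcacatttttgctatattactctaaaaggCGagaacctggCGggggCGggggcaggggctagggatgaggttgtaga
Hacd1, chr2:14056136-14056285, strand -: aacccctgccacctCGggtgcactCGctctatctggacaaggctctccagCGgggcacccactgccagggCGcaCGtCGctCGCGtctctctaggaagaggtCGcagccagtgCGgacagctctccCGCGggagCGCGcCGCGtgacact

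For the closed peaks the stretches belong to Gm1979, a predicted gene with a promoter-annotated peak, to Cldnd1, a claudin-like membrane protein, to Map2, a microtubule protein of neuronal dendrites, and to Ccr1, a chemokine receptor of leukocytes.
Gm1979, chr5:26004799-26004977, strand -: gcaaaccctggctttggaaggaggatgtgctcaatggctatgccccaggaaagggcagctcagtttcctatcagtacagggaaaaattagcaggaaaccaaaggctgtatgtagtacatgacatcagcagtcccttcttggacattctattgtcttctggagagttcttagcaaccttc
Cldnd1, chr16:58727660-58727909, strand +: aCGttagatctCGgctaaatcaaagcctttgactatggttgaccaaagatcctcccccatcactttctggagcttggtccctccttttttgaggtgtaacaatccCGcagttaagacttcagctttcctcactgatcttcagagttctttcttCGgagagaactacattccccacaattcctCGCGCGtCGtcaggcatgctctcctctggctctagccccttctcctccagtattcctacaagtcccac
Map2, chr1:66175079-66175272, strand +: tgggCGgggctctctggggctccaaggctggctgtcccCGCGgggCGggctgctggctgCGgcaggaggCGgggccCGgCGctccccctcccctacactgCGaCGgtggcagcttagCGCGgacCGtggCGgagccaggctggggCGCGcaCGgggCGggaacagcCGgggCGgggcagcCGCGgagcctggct
Ccr1, chr9:123968693-123968942, strand -: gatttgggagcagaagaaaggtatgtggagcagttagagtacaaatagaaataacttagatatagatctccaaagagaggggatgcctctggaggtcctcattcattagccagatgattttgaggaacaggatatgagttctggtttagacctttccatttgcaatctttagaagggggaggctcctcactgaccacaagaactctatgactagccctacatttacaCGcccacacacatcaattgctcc

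These stretches differed widely within each direction. Among the opened ones Hacd1 held 16 CG dinucleotides in 150 bases (68.7% GC) and Retnlg held 3 in 250 bases (43.2% GC), and among the closed ones Map2 held 22 in 194 bases (79.4% GC) and Gm1979 held 0 in 179 bases (46.9% GC). CG-rich and CG-poor promoters thus stood on both sides. Over all 31396 RefSeq starts on these chromosomes the median was 6 CG dinucleotides in the 250 bases before the start, against 3.0 for the 65 starts inside opened peaks and 1.5 for the 86 starts inside closed peaks. Starts inside shared peaks had a median of 2.0 in both lists, so low CG numbers were found in the lists as a whole. The letters GACCC, which the zinc fingers of ZBTB7A are known to contact, were searched on both strands and occurred among the stretches shown in that of Retnlg. In the 250 bases before the start they occurred at 39.0% of all starts, at 33.8% of starts in opened peaks and at 20.9% of starts in closed peaks, against 31.8% and 32.7% in the shared peaks of the CSDS and the control list. The shares of opened and closed peaks rest on 65 and 86 starts, several of which lie in the same peak. No interval was calculated for them, and their difference was not tested. RefSeq entries were matched for 14 of 18 promoters looked up, and those of Naaladl2, Cpq, Ttll11 and Tigd2 are named only.

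The lists are made of wide regions, and the opened and closed peaks were their narrow and weak part. A wide peak has more length in which to meet a peak of the other list. The 1 bp rule therefore favours narrow peaks among the opened and closed ones. Its part in the contrasts of width and fold enrichment was not tested. The median width was 41.3 kb in the CSDS list and 32.9 kb in the control list, against 14.6 kb for opened and 15.2 kb for closed peaks, while shared peaks had medians of 91.5 kb and 54.0 kb. Opened peaks covered 8.15 Mb (4.63% of the length of their list) and closed peaks 8.60 Mb (4.99%). The remaining length was largely common, with 152.7 Mb in both lists, which was 86.8% of the CSDS length and 88.7% of the control length. The sides of shared peaks that reached beyond the other list added 15.01 Mb in the CSDS list and 10.9 Mb in the control list, more than the opened and the closed peaks themselves.

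Fold enrichment, the peak caller's ratio of signal to background, is comparable within a list. Its median was 1.66 for opened and 1.67 for closed peaks, against 1.97 and 1.90 for the shared peaks of the same lists. Of CSDS peaks under 10 kb 52.1% were opened (86 of 165, 44.5 to 59.6), and of those over 100 kb 1.88% were opened (8 of 426, 0.955 to 3.66). In the control list the same shares were 46.2% (97 of 210, 39.6 to 52.9) and 3.47% (14 of 404, 2.08 to 5.73). At a fold enrichment of 2.5 or more 1 of 220 CSDS peaks was opened (0.455%) and 9 of 220 control peaks were closed (4.09%). In the upper 50% of each list by fold enrichment the order of the counts turned, with 54 opened and 73 closed peaks. These were 8.94% and 11.01% of the upper parts. In the full lists the counts were 327 and 316, or 27.6% and 24.3%, with overlapping intervals. No interval was calculated for these differences, so the turn cannot be told from counting error.

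**Figure D1:**
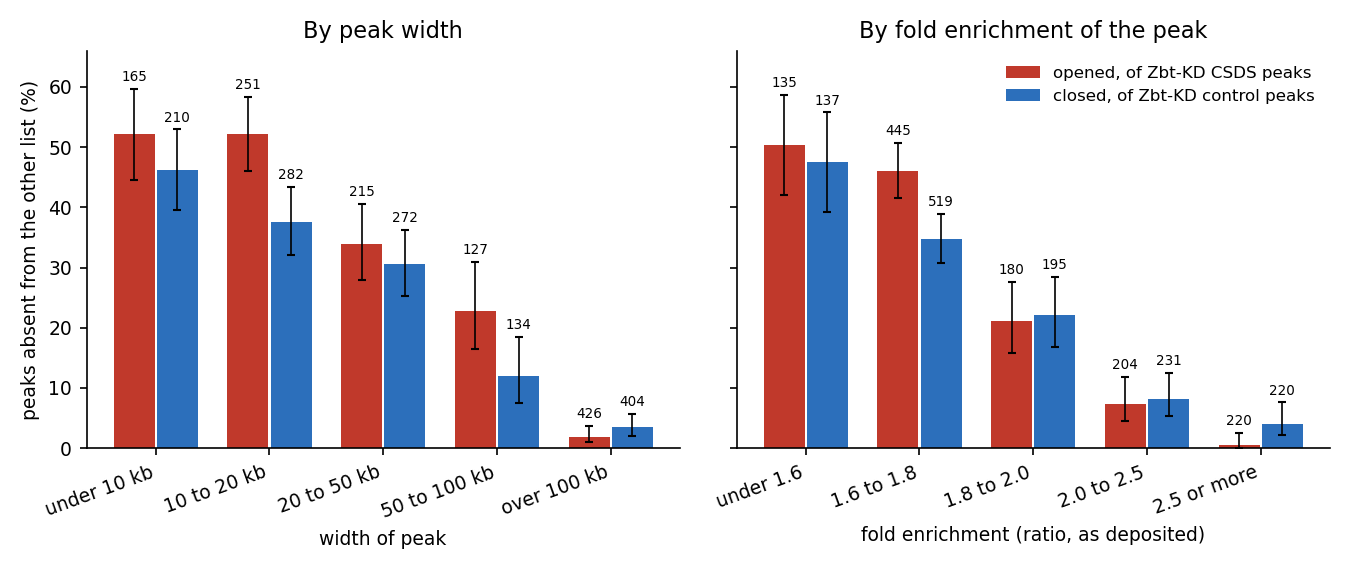
Share of peaks absent from the other list (y axis, percent) by peak width (left) and by fold enrichment (right), for opened peaks of the Zbt-KD CSDS list (red) and closed peaks of the Zbt-KD control list (blue), with 95% Wilson intervals as bars and the number of peaks in each bin above them. The shares go from 52.1% and 46.2% under 10 kb to 1.88% and 3.47% over 100 kb.

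**Figure D2:**
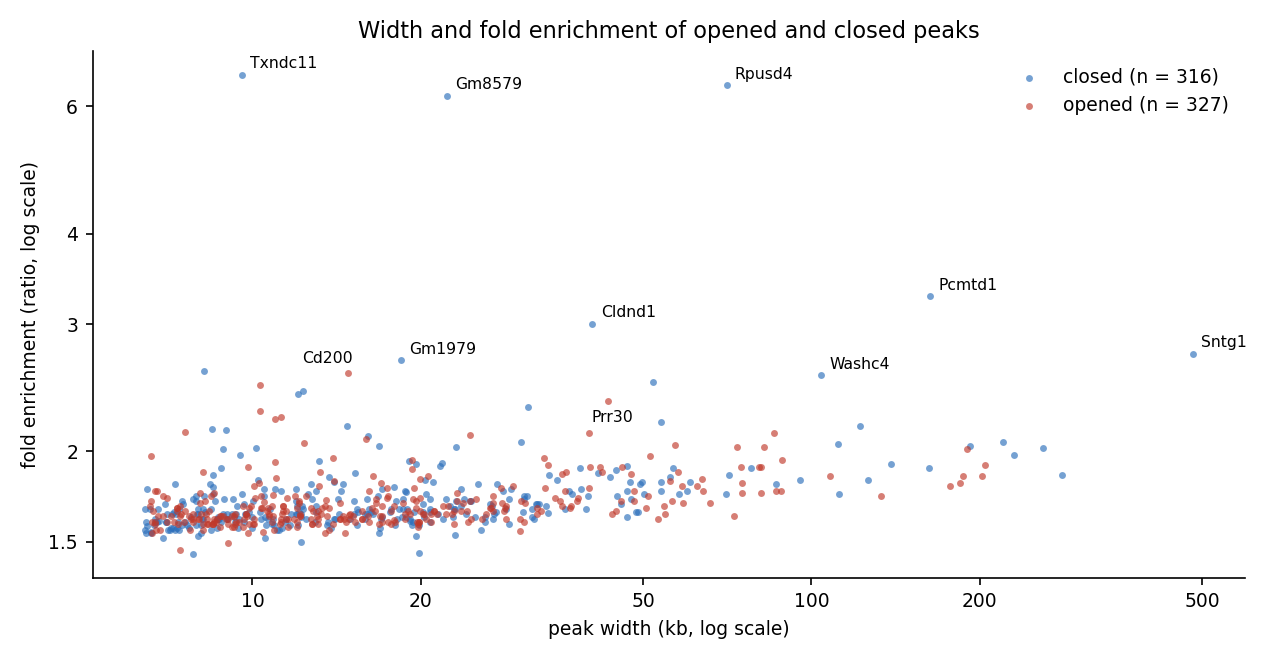
Width (x axis, kb, log scale) and fold enrichment (y axis, ratio, log scale) of each of the 327 opened (red) and 316 closed (blue) peaks, with several of the strongest named by their nearest gene. Most points lie between 1.5 and 2, and the closed peaks at Txndc11, Rpusd4 and Gm8579 lie above 6. Fold enrichments of the 2 colours come from different lists.

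Most opened and closed peaks lay well away from the peaks of the other list, so the overlap rule did not hinge on a few bases. The lists hold called peaks only, so a gap does not give the signal of the other group there. The gap to the nearest peak of the other list had a median of 114 kb for opened and 135 kb for closed peaks, was under 10 kb for 22 and 20 peaks, and was over 1 Mb for 63 and 74. The peaks nearest to the threshold on its outer side were an opened peak at Cd200, with a gap of 2376 bp, and a closed peak at Lipo1, with a gap of 3965 bp. On the inner side, the least overlap of shared peaks was 179 bp at AA536875.

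Shared peaks were alike in width where 1 peak of a list matched 1 of the other. Of 700 shared domains 480 were of this kind, with a median CSDS to control width ratio of 1.00 (quartiles 0.955 and 1.07). The median ratio of the listed fold enrichments, which come from different lists, was 0.999 (5th to 95th percentile 0.839 to 1.19). The CSDS peak was the wider in 260 of these 480 pairs (54.2%, 49.7 to 58.6). In 126 domains 1 CSDS peak spanned several control peaks, as at Hddc2 and Hey2 on chromosome 10 with 11 control peaks in 1 CSDS peak, and in 73 domains the reverse held, as at Mir6342 and Phf3 on chromosome 1 with 8 CSDS peaks in 1 control peak. A CSDS peak that spanned several control peaks was thus the more frequent of these 2 kinds.

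The strongest opened peak was an intergenic peak of Cd200. It spanned chr16:45347247-45362072 (14.8 kb), had a fold enrichment of 2.57 and lay 54.4 kb from the listed TSS, with 0 peaks in both GFP lists and both overexpression lists. A neighbouring opened peak, chr16:45400296-45428128 with a fold enrichment of 1.78, covered the Cd200 start itself and was also present in the GFP control list. At Kdm4a the opened peak (chr4:118172648-118180220, fold enrichment 2.13) included the gene's start at 0.177 kb from the peak edge, and all 4 other lists had a peak there. Both genes therefore had a start inside a region listed in stressed but not in control Zbt-KD astrocytes, with different presence in the GFP mice.

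The other opened peaks of the 10 strongest had fold enrichments from 2.11 to 2.47. They were nearest to Gm5458, Prr30, the small nucleolar RNA gene Snord116l2 of an imprinted cluster, Mat2b, which encodes the regulatory subunit of an enzyme that makes S-adenosylmethionine, Timm8a1 of mitochondrial protein import, the transport ATPase gene Atp13a4, Naaladl2 and Hand2os1. The Naaladl2 peak (chr3:25111866-25151817) covered a coding start of that gene, although the listed distance to the TSS was -348 kb. Of these 10 peaks 6 had a GFP control peak and 7 a GFP CSDS peak.

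Fold enrichments of closed peaks are those of the control list and are not ranked against opened peaks. The 3 highest were an intronic peak of Txndc11, a thioredoxin-domain protein of the endoplasmic reticulum (chr16:11134738-11144303, 6.64), an intronic peak of Rpusd4, a mitochondrial pseudouridine synthase (chr9:35238867-35309361, 6.41), and an intergenic peak at the pseudogene Gm8579 (chr6:3191963-3214267, 6.21). The Rpusd4 peak, intronic by its annotation, also held the coding starts of Rpusd4 and Fam118b. The 3 peaks differed in where else they were found. The Txndc11 peak had no peak in the other 5 lists. The Rpusd4 peak was absent from GFP control and present in GFP CSDS, where 1 peak covered 87.1% of it. The Gm8579 peak was absent from GFP CSDS and present in GFP control, where 1 peak covered 3.54% of it.

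A closed region of chromosome 1 was also listed in GFP control and not in GFP CSDS. The peaks chr1:7484265-7714885 and chr1:7996288-8159401, nearest to Pcmtd1, and chr1:8688450-9170160 in Sntg1, a syntrophin of the dystrophin complex and the widest closed peak (482 kb), had fold enrichments of 1.98, 3.28 and 2.73. GFP control had 17, 1 and 20 peaks in them, covering 47.2%, 98.0% and 19.0% of their length, and GFP CSDS had 0 in each. The 3 peaks were also in the GFP list of the overexpression experiment and not in the ZBT-OE list, and another closed peak between them (17.0 kb, 1.61) was in none of the other lists. The 3 wide peaks were thus listed in both control groups of the knockdown experiment and in neither CSDS group.

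Closed peaks that held a coding start were also among the strongest, led by the Rpusd4 peak described above. Cldnd1 (chr16:58717269-58757834) had a fold enrichment of 3.004, Washc4, a subunit of the endosomal WASH complex (chr10:83506779-83610802, which also covered the start of Aldh1l2), had 2.55, and the Map2 peak over the start (chr1:66175024-66187316) had 2.42. Map2 had another closed peak at a listed distance of -32.7 kb from its TSS, with a fold enrichment of 1.57. Of these peaks the Cldnd1 and the Map2 peaks were in GFP CSDS and not in GFP control, while Washc4 was in GFP control and not in GFP CSDS. The overlap was small for Cldnd1, with 7.33% of the peak covered in GFP CSDS, and for Washc4, with 0.704% covered in GFP control. The Ube2o, Aanat, Zbtb49 and Lyar starts lay in opened peaks of 1.75 and 1.70, so coding starts stood on both sides.

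In all, 35 coding starts lay inside opened peaks and 71 inside closed peaks. Per Mb of peak these were 4.30 and 8.26, against 6.65 and 6.69 in the shared peaks of the CSDS and the control list. Part of the closed count came from gene clusters in few peaks. The closed peak chr6:42371325-42493561 alone held the starts of Epha1, Tas2r126, Tas2r135, Tas2r143 and 3 olfactory receptors, and chr7:103861002-103947375 held 6 olfactory receptor starts. Next to it, the closed peak chr7:103821873-103852903 (fold enrichment 1.73) held the starts of the beta-globin genes Hbb-bh2, Hbb-bh1 and Hbb-bs and had no peak in the other 5 lists. A coding gene was overlapped by 28.7% of opened (24.1 to 33.9) and 32.0% of closed peaks (27.1 to 37.3), and by 40.4% of the shared peaks of the CSDS list.

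By annotation class, opened and closed peaks were mostly intergenic. Intergenic peaks made up 76.8% of opened (251 of 327) and 78.5% of closed peaks (248 of 316), and introns 22.3% (73 peaks) and 17.4% (55 peaks). The intron shares differed by 4.92 percentage points (Newcombe interval -1.27 to 11.05), so counting error alone covers the difference. Against the shared peaks of the CSDS list, 17.2% of which were intronic, opened peaks differed by 5.17 points (0.214 to 10.5). This gap is not adjusted for the classes compared and rests on peaks that share runs.

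Promoter peaks were rare in both directions. The class held 1 opened (0.306%) and 5 closed peaks (1.58%), a difference of -1.28 points (-3.36 to 0.395). The opened one was Retnlg (chr16:48862119-48881453, 1.89), which had a peak in all 4 other lists. The closed ones were Olfr1247, Olfr851 and Olfr361, all olfactory receptor genes, Gm1979 and Ttll11, a tubulin-modifying enzyme, with fold enrichments of 1.61, 1.61, 1.88, 2.67 and 1.498. Olfr1247 and Olfr851 had no peak in the other 5 lists. Transcription termination sites were the class of 0 opened and 4 closed peaks, 3′ UTRs of 0 and 2, and exons of 2 and 2.

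Opened peaks were listed farther from a TSS than closed peaks. The median distance from the peak centre was 185 kb for opened and 131 kb for closed peaks, and 129 and 149 kb for the shared peaks of their lists. Beyond 500 kb lay 19.6% of opened (64) and 13.9% of closed peaks (44), a difference of 5.65 points with an interval from -0.147 to 11.4. Within 10 kb lay 33 opened (10.1%) and 40 closed peaks (12.7%). In each distance class the interval of the difference between opened and closed peaks included 0.

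Base composition differed little between the directions. GC content was 39.4% in opened and 39.6% in closed peaks, against 39.8% in shared peaks and 41.9% over chromosomes 1 to 19. Repeat-masked sequence made up 42.3% of opened and 42.5% of closed peaks, 46.8% of the shared peaks of both lists and 33.5% of the chromosomes. Both sets were thus poorer in GC and richer in repeats than the genome, as the shared peaks were. The letters GACCC, counted on both strands, occurred 1.07 and 1.09 times per kb in opened and closed peaks and 1.25 times per kb over the chromosomes. The lowest and highest GC contents of opened peaks were 33.8% at Olfr1170 and 51.8% at Gm4425, and those of closed peaks were 33.2% at Olfr851 and 49.5% at Gm32168. A LINE repeat lay at the centre of 33.6% of opened and 30.7% of closed peaks, a difference of 2.94 points (-4.27 to 10.1).

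Opened and closed peaks lay in runs. Peaks of the same direction less than 1 Mb apart were joined, and runs of 4 or more held 92 opened peaks in 18 runs (28.1%) and 120 closed peaks in 23 runs (37.97%). Peaks of a run are neighbours and are not independent counts.

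Closed runs without any CSDS peak differed in the other lists. At Tigd2 and Gprin3, a neurite outgrowth gene (chr6:59208712-59502940), 7 closed peaks covered 65.9% of the run, and GFP control and GFP CSDS peaks covered 85.2% and 74.8%. At the pigment enzyme gene Tyrp1 and at Lurap1l (chr4:80596536-80912245) 7 closed peaks stood against 0 GFP control peaks and 18 GFP CSDS peaks. Both runs were therefore listed in stressed GFP mice. At the 5 intronic closed peaks of Unc13c, a synaptic vesicle priming gene (chr9:73603720-73809130), GFP CSDS had 0 peaks, GFP control 5 that covered 2.93%, and the GFP and ZBT-OE lists of the overexpression experiment had 1 peak each, over 99.6% and 99.3% of the run. At Gm6602 (chr3:111379675-111579140), with 6 closed peaks over 70.1% of the run, GFP control had 2 peaks over 1.24% and the other 3 lists had 0.

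Among the opened runs, that beside Mat2b (chr11:40282833-40623169) was listed in stressed mice of both viruses. All 8 opened peaks had a GFP CSDS peak and 1 had a GFP control peak. GFP CSDS peaks covered 93.1% of the run and GFP control peaks 0.577%, while each overexpression list covered the whole run with 1 peak. The 5 opened peaks at Gm28881 (chr10:65182101-65350336) had the same state, with 94.96% covered in GFP CSDS and 0.553% in GFP control. The 4 opened peaks nearest to Map3k7, a kinase of NF-kB and MAP kinase signalling, also all had a GFP CSDS peak and 0 had a GFP control peak. At these 3 places the lists differed in the same direction with and without knockdown. The opposite was also found. All closed peaks nearest to Tyrp1 (6), Tcerg1l (5), Tmprss15 (4) and Tusc1 (4) had a GFP CSDS peak, and 0 had a GFP control peak. Presence in GFP CSDS and not in GFP control held for 29.7% of all opened and 26.3% of all closed peaks.

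Other opened runs were covered less, or not at all, in the GFP CSDS list. The 5 intronic peaks of Dpp10, an auxiliary subunit of A-type potassium channels (chr1:123864461-123972945, fold enrichments from 1.59 to 1.68), had 0 peaks in the other 5 lists. The 5 intronic peaks of Cntnap2, a neurexin-family adhesion protein that clusters potassium channels on axons (chr6:46340645-46527733, fold enrichments up to 1.72), had 0 peaks of both GFP lists on them. At Hacd1 (chr2:13950416-14066235) the GFP control list had 13 peaks over 31.9% of the run and GFP CSDS had 0. Fut8, which adds core fucose to N-glycans, had 8 opened peaks over 46.3% of its run, with 7.84% covered in GFP CSDS and 1.94% in GFP control, and Dnajb9, a co-chaperone of the endoplasmic reticulum, had 7, with 38.96% and 1.17%. The opened runs thus ranged from regions listed in Zbt-KD CSDS alone to regions listed in most groups.

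**Figure D3:**
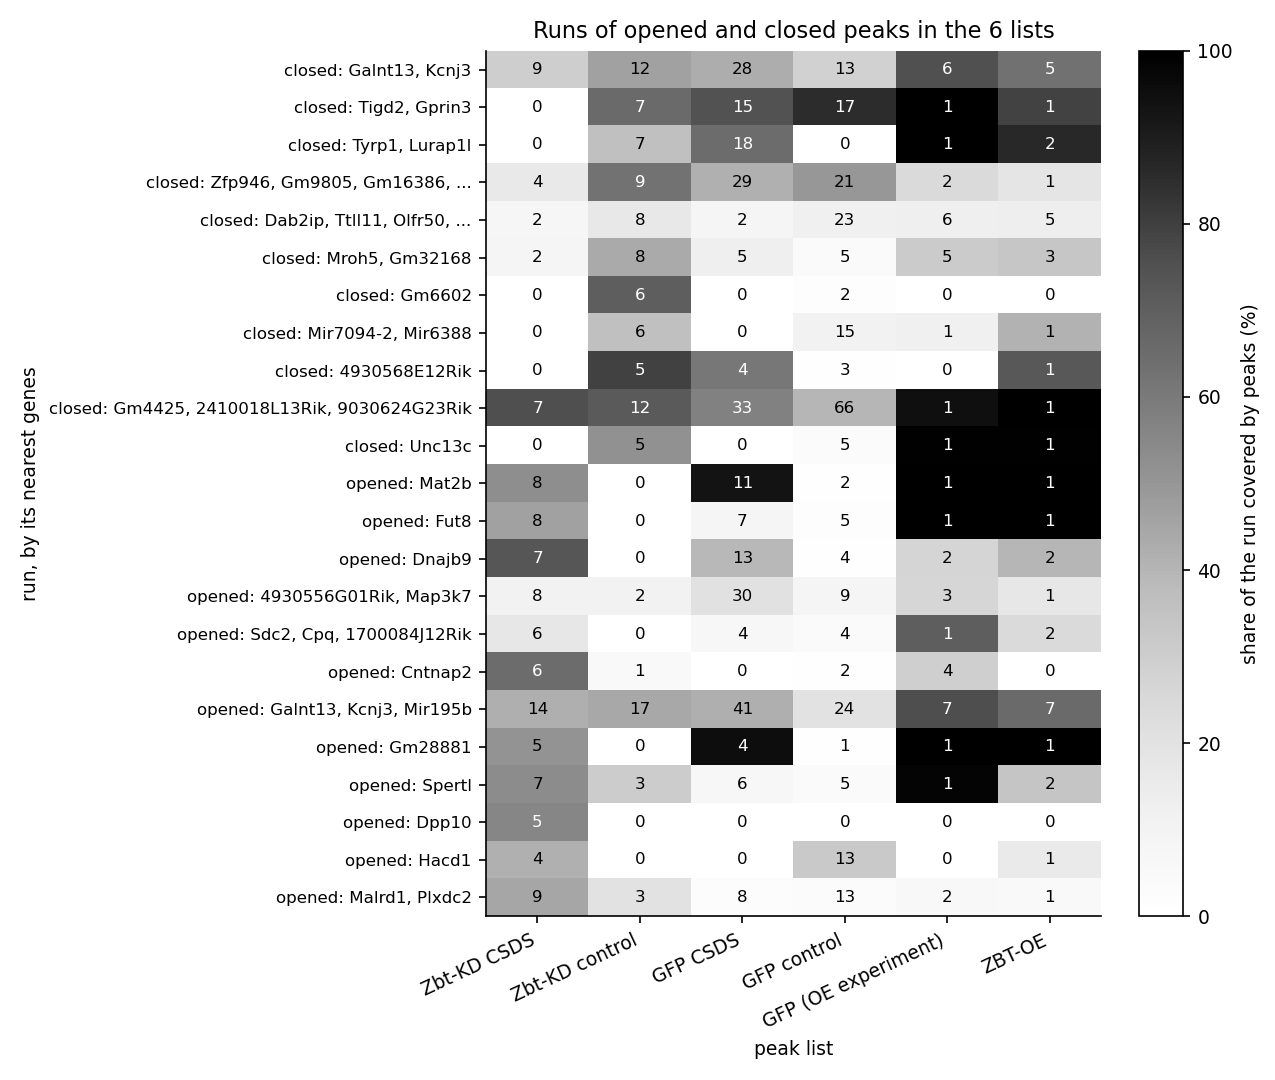
Runs of closed and opened peaks (rows, named by their nearest genes) in the 6 peak lists (columns), from those with the most peaks. The grey level gives the share of the run covered by peaks of that list (percent) and the number in each cell gives how many peaks of that list lie in it, so that the row of Tyrp1 and Lurap1l has 0 peaks under Zbt-KD CSDS and 7 under Zbt-KD control.

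Between chromosomes the direction was uneven, with more opened than closed peaks on 9, more closed on 8 and equal numbers on 2. Chromosome 3 had the most of both, with 45 opened and 36 closed peaks, and per 100 Mb the opened counts ranged from 2.21 on chromosome 18 to 28.1 on chromosome 3. On chromosome 11 12 of 27 CSDS peaks were opened and 3 of 21 control peaks were closed, a difference in shares of 30.2 points (3.73 to 50.6). This was the only chromosome of 19 whose interval excluded 0, and 8 of its 12 opened peaks were the Mat2b run. Chromosome 9 leaned the other way with 14 opened and 29 closed peaks, 10 of the latter in the runs at 4930568E12Rik and Unc13c and 8 in another run, and its interval for the difference in shares was -29.7 to 1.08.

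**Figure D4:**
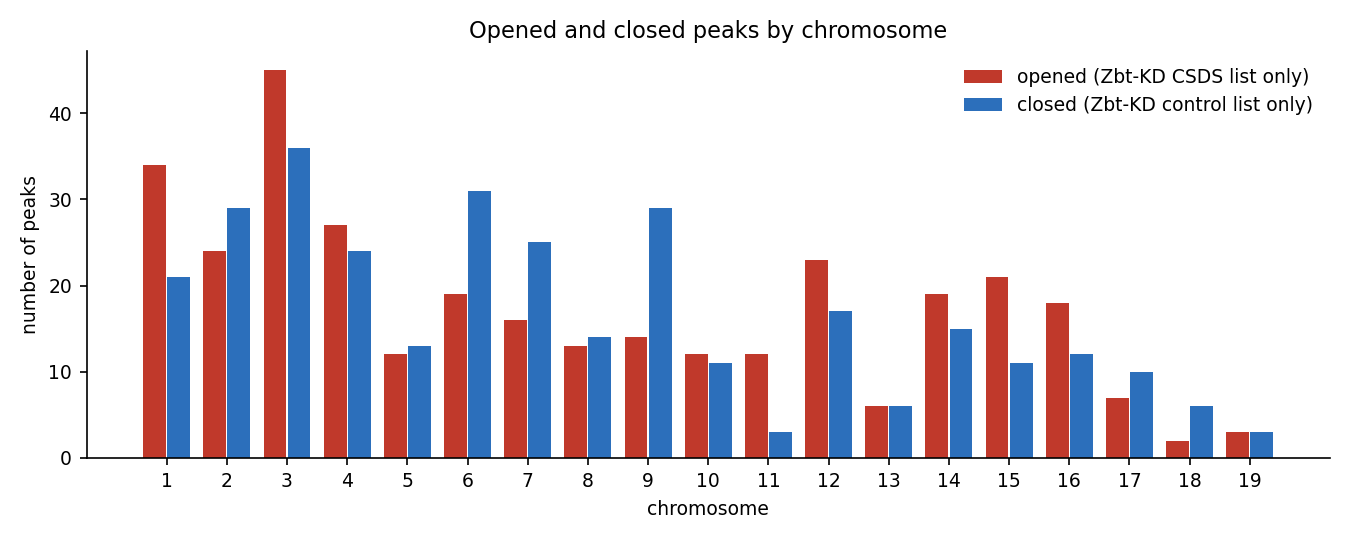
Number of opened (red) and closed (blue) peaks (y axis) on each of chromosomes 1 to 19 (x axis). Chromosome 3 has the most peaks of both kinds (45 and 36), and chromosomes 6 and 9 have more closed than opened peaks (31 against 19 and 29 against 14).

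The opened peaks had 196 nearest genes and the closed peaks 202, and 21 genes were nearest to peaks of both kinds. Genes of these 21 include Galnt13, an enzyme of O-glycan synthesis in neurons, with 6 closed and 1 opened peaks, Kcnj3, a G protein-gated potassium channel, Cdh6, Nbea, Celf2 and Ralyl. The nearest gene often had a shared peak as well, for 81 opened (41.3%) and 72 closed genes (35.6%). Of the 196 opened genes 112, and of the 202 closed genes 128, were nearest to no peak of the other list. Over the whole lists this held for 187 of 743 genes of the CSDS list and 230 of 786 of the control list. The opened and closed peaks were themselves chosen for lacking an overlap. A gene name therefore does not carry a direction unless its peaks are given. With 3 or more peaks were 30 opened genes, led by Fut8, Mat2b, Dnajb9, Cntnap2, Dpp10, Gm28881, Spertl, 1700022A22Rik, B3galt2 and Gm6634, and 27 closed genes, led by Galnt13, Gm6602, Tyrp1, 4930568E12Rik, Tcerg1l, Unc13c, Gm4850, Gprin3, Mir7094-2 and Oca2. The listed TSS was far for several of these, as for B3galt2 with all 4 opened peaks more than 1159 kb away.

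The widest opened peaks lay in or near long genes. Lrrc4c, a netrin-G ligand of synapses (204 kb, fold enrichment 1.92), Malrd1 (202 kb, 1.85), Sugct, an enzyme of glutarate metabolism (190 kb, 2.01), and Glra3, a glycine receptor subunit (187 kb, 1.85), had intronic peaks, and Catsperb, of a sperm calcium channel (185 kb, 1.81), an intergenic peak. Those of Malrd1 and Glra3 had 0 peaks in the other 5 lists. The widest closed peaks after that in Sntg1 were nearest to Pou5f1-rs5 (281 kb), Rgmb, a co-receptor of bone morphogenetic proteins (260 kb), Pcmtd1 (231 kb) and Vps50, of endosomal recycling (220 kb). The Rgmb and Vps50 peaks were present in all 4 other lists.

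Synaptic adhesion genes accounted for 12 opened peaks (3.67%) and 1 closed peak (0.316%) by nearest gene. Over all peaks of the lists the same genes accounted for 33 CSDS peaks (2.79%) and 30 control peaks (2.304%). The opened ones were 5 at Cntnap2, 3 at Cntnap5a, 2 at Cntnap5c, 1 at Lrfn5 and 1 at Epha6, and the closed one was at Ncam2, 1425 kb from its TSS. Contactin-associated genes thus made up 10 of the 12, and the 5 at Cntnap2 are 1 run. Among other genes of neuronal signalling, Glra3 and Grik2, a kainate receptor subunit, had 1 opened peak each.

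Olfactory receptor genes were nearest to 9 opened (2.75%) and 15 closed peaks (4.75%), and 4 and 35 of these genes, pseudogenes included, were overlapped. Over all peaks the olfactory share was 4.14% in the CSDS list and 4.38% in the control list, and 236 and 262 of these genes were overlapped. Vomeronasal receptor genes were nearest to 8 opened (2.45%) and 5 closed peaks (1.58%), against 2.62% and 2.07% of all peaks. Both families stand in dense clusters, so 1 peak can take in many members. Scgb, Defb and Serpin genes were nearest to 4 opened (1.22%) and 0 closed peaks, against 1.098% and 0.845% of all CSDS and control peaks, and zinc finger genes to 5 (1.53%) and 4 (1.27%), against 1.86% and 1.54%. Solute carriers were nearest to 1 (0.306%) and 2 (0.633%), against 0.929% and 1.075%, and predicted or uncharacterised genes to 72 (22.0%) and 90 (28.5%), against 24.3% and 24.5%.

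Few genes of astrocyte function and of the stress response were found, and the peaks overlapped few coding genes of any kind. Of 20807 coding genes, CSDS peaks overlapped 1291 and control peaks 1328, opened peaks 77 and closed peaks 117. The counts of the short gene lists were not tested against these. None of 12 astrocyte marker genes was nearest to or overlapped by a peak of the Zbt-KD lists, so the labelled cell type cannot be checked from these peaks. Endothelial and oligodendrocyte lineage markers were likewise at 0, 1 microglia marker was nearest to a control peak and none to a CSDS peak, and 2 neuron markers were nearest to control peaks and 1 to a CSDS peak, with Map2 the only one among closed peaks. Of 30 reactive astrocyte genes Steap4 had 1 opened peak (fold enrichment 1.67, 30.2 kb from the TSS) and Cd109 1 closed peak (1.64), of 27 homeostasis genes Gpc6 had 1 closed peak (1.56), and the NF-kB and cytokine and the glucocorticoid and stress response lists had 0 of both kinds. By name pattern, the interleukin gene Il15 had 2 opened peaks and Il7 had 1 closed peak, more than 100 kb from their TSSs. Chemokine, interferon and interleukin genes thus made up 0.612% of opened and 0.316% of closed peaks. Over all peaks they made up 0.253% of the CSDS list (3 peaks) and 0.154% of the control list (2 peaks). Zbtb7a itself had no peak, and the nearest lay 523 kb away in the CSDS list and 535 kb away in the control list.

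In GFP mice the same comparison gave larger shares, with 48.2% of 3410 CSDS peaks opened and 29.2% of 5416 control peaks closed. The GFP lists were made of narrower peaks, with medians of 4.04 kb for CSDS and 1.98 kb for control and narrowest peaks of 1174 and 687 bp, and the part of this in the shares was not tested. Of the Zbt-KD opened peaks 47.7% had a GFP CSDS peak (42.4 to 53.1) and 28.7% a GFP control peak (24.1 to 33.9). The closed peaks had nearly the same shares, 44.9% (39.5 to 50.4) and 32.6% (27.7 to 37.9). These levels depended on the peaks compared, since in the upper 50% by fold enrichment 59.3% of opened and 56.2% of closed peaks had a GFP control peak, which turned the order, and with the GFP lists merged and filtered at 10 kb 16.8% and 20.3% had one. Shared peaks were found far more often, with 89.6% of those of the CSDS list in GFP CSDS and 81.2% in GFP control. The gap was also present among peaks of like width. Of CSDS peaks under 10 kb 38.4% of opened (28.8 to 48.9) and 73.4% of shared ones (62.8 to 81.9) had a GFP CSDS peak, and from 20 to 50 kb the shares were 46.6% (35.6 to 57.9) and 86.6% (80.05 to 91.3). From 50 to 100 kb they were 82.8% (65.5 to 92.4) and 94.9% (88.6 to 97.8), so that the intervals overlapped there.

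For each peak it was asked whether it lay in GFP CSDS and not in GFP control. This held for 97 opened peaks (29.7%, 25.0 to 34.8), and also for 83 closed peaks (26.3%, 21.7 to 31.4), a difference of 3.398 points (-3.54 to 10.3). The reverse state, in GFP control and not in GFP CSDS, held for 35 opened (10.7%) and 44 closed peaks (13.9%), a difference of -3.22 points (-8.37 to 1.88). Presence in the GFP lists thus did not separate opened from closed Zbt-KD peaks beyond counting error, and both intervals allow differences of up to about 10 points. In none of the other 4 lists were 64 opened (19.6%) and 60 closed peaks (19.0%), among them the strongest Cd200 peak, the 5 of Dpp10, that of Txndc11 and that of the beta-globin genes.

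**Figure D5:**
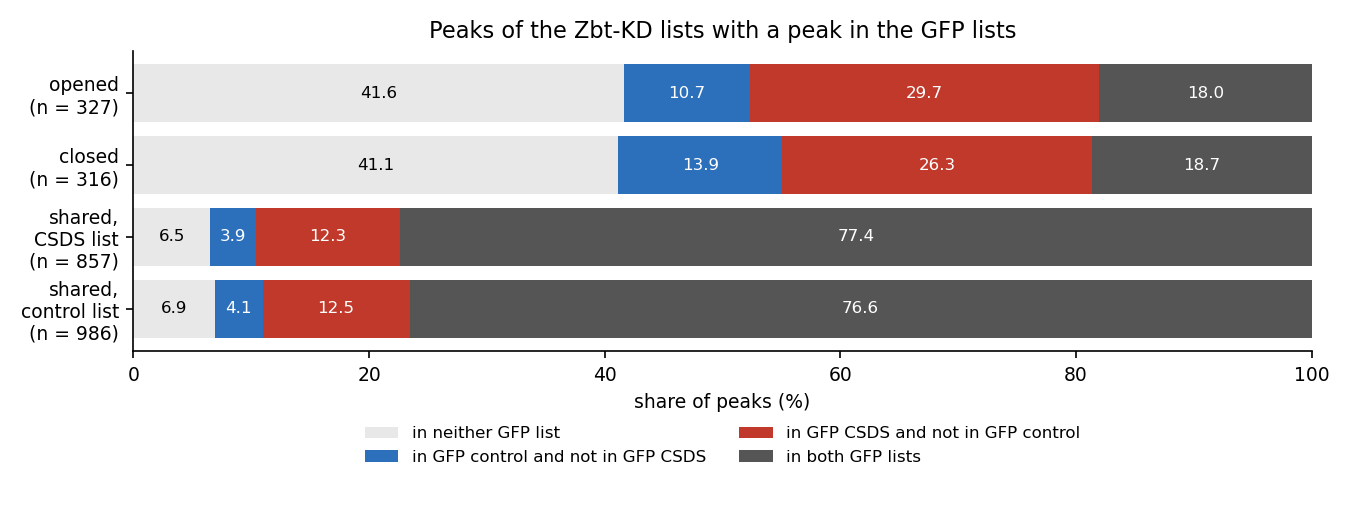
Share of opened, closed and shared peaks of the Zbt-KD lists (rows, x axis in percent) with a peak in neither GFP list (light grey), in GFP control alone (blue), in GFP CSDS alone (red) or in both (dark grey). Opened and closed rows are nearly alike (41.6% and 41.1% in neither), and 77.4% and 76.6% of the shared peaks are in both.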

How the data were processed

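ATAC-seq of MACs-isolated mouse OFC astrocytes was analysed for the 5 Zbt-KD control and 5 Zbt-KD CSDS samples, grouped by their labels. HISAT2 was the authors' aligner and mm10 their build. Only reads with a unique position entered, SAMtools took out duplicates, and MACS was the peak caller, with an FDR limit of 0.05. The way in which a group's 5 samples became 1 list is not given in the sources used here. The labels speak of sorted nuclei and the methods of magnetically sorted cells.

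The authors deposited 1 annotated peak list per group, with the fold enrichment (a ratio, comparable within a list), the q-value (a p-value adjusted by the peak caller, at most 0.000215 and 0.000233 in the Zbt-KD lists) and, in bp, the deposited distance from peak centre to TSS. The narrowest peaks were 6507 and 6425 bp wide and the smallest gaps 6475 and 6427 bp, a limit that no stated setting explains. Read totals are not part of the lists, which leaves the depth of each sample unknown, and width and calling limits may differ with it.

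Starts were read as counted from 1. Overlap was at least 1 bp on chromosomes 1 to 19. Shares have 95% Wilson intervals, differences Newcombe intervals and median distances intervals from order statistics, all of which cover counting error only. No test was run, because each group is 1 list. Gene positions came from GENCODE and sequences from RefSeq, both on GRCm38, which has the coordinates of mm10. Members and gene lists were chosen with earlier results of these data known. Named genes were those nearest to the 10 opened and 10 closed peaks of highest fold enrichment, to the 5 widest of each, to promoter-annotated peaks, with 3 or more peaks (10 per direction), or in the gene lists. Others were named after their values were seen, such as genes of runs, of the threshold, of domains and of coding starts. Alternatives were another overlap, a slack of 500 bp, the upper 50% by fold enrichment, peaks merged and filtered at 10 kb, all chromosomes, promoters within 1 kb and genes within 10 kb. The comparison was tested on simulated data with 3000 peaks, and 10 of 10 quantities were recovered. The scripts ran in Python 3.11.15 with scipy 1.17.1, pandas 2.3.3, matplotlib 3.10.9 and numpy 2.4.6. Some results, among them the closed run with the most peaks (8, on chromosome 9), which the plot of runs leaves out, are not reported here.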

Additional observations from a re-analysis of the deposited data

How the results depend on the processing

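The comparison of the Zbt-KD lists was repeated under 8 alternatives for 23 quantities. Of 113 values 80 stayed within 1.5 times the count or within the counting interval. All 23 quantities did so when chromosomes X, Y and scaffolds were added, when peaks up to 500 bp apart counted as shared, and when sharing required 50% of the shorter peak, and so did both promoter shares with a window of 1 kb. With the upper 50% of each list by fold enrichment there were 54 opened and 73 closed peaks covering 2.77 and 4.39 Mb, 52 genes nearest to opened peaks, a promoter share of 1.85% and a share with a GFP CSDS peak of 68.5% for opened peaks. With peaks merged and filtered at 10 kb there were 195 opened and 186 closed peaks, and 53.8% of opened peaks had a GFP CSDS peak. That share was 36.4% when the GFP list was merged and filtered, and 52 genes nearest to opened peaks had their TSS within 10 kb of the peak edge. The cause of these shifts was not tested, beyond the fewer peaks that the narrower selections hold. No paired analysis was possible because each group is a pooled list without values per sample, and for the same reason no sample could be left out.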

Other observations

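Outside chromosomes 1 to 19, 39 of 219 CSDS peaks (17.8%) had no overlap in the control list and 50 of 256 control peaks (19.5%) had none in the CSDS list. On the X chromosome these were 33 of 148 and 40 of 182 peaks, and on the Y chromosome 6 of 63 and 10 of 67.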
